A study of Mus musculus with 84 samples.

Results

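Triglyceride synthesis genes were taken as 10 named members of the 21851 protein-coding genes of the GENCODE mouse annotation: Gpam, Agpat2, Agpat3, Lpin1, Lpin2, Lpin3, Dgat1, Dgat2, Mogat1 and Pck1. For each of them, CUT&Tag peaks of 4 histone marks were measured at the promoter (2000 bp either side of every annotated start site), over the gene body and over 50 kb flanks, in 84 libraries of labelled adipocyte nuclei from mouse epididymal fat. H3K4me3 was profiled in 21 libraries, H3K27ac in 21, H3K4me1 in 22 and H3K27me3 in 20. All mice carried AdipoERCre, a tamoxifen-inducible Cre driven in adipocytes, together with the NuTRAP reporter, which tags nuclei of the recombined cells so that they can be pulled out of whole tissue, and the lines were kept on C57BL/N (C576BL6 in the labels).

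The libraries fell into 8 diet groups of 2 or 3 libraries per mark. In the 12-week cohort, C mice had eaten chow until 18 weeks of age, H mice of the same age had eaten a high-fat diet for 12 weeks, CC_s mice had eaten chow until 26 weeks, and HC mice of that age had returned to chow for 8 weeks after 12 weeks of high-fat diet. In the 25-week cohort, CC_l (chow) and HH (25 weeks of high-fat diet) were 31 weeks old, and CCC (chow) and HHC (25 weeks of high-fat diet, then 8 weeks of chow) were 39 weeks old. The comparisons that the design implies are H with C and HH with CC_l, which ask what obesity changes, and HC with CC_s and HHC with CCC, which ask what remains after weight loss.

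Adipocytes build triglyceride by adding fatty acids to a glycerol backbone in a fixed order. The protein of Gpam, mitochondrial glycerol-3-phosphate acyltransferase, adds the first fatty acid, the acylglycerolphosphate acyltransferases of Agpat2 and Agpat3 add the next, the lipins remove the phosphate to leave diacylglycerol, and the diacylglycerol acyltransferases of Dgat1 and Dgat2 add the last. The Mogat1 enzyme reaches diacylglycerol from monoacylglycerol instead, and the Pck1 enzyme, cytosolic phosphoenolpyruvate carboxykinase, feeds glyceroneogenesis, the making of the backbone itself. H3K4me3 marks active start sites, H3K27ac active promoters and enhancers, H3K4me1 enhancers, and H3K27me3 genes silenced by Polycomb.

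Among promoters, the differences that stood out lay at single start sites. At the first start site of Gpam, 9 of the 10 controls but 2 of the 11 libraries from mice that had eaten a high-fat diet held an H3K4me3 peak, and the mark was lower in H than in C and lower in HHC than in CCC. Both HH libraries held the peak and overlapped CC_l. This window was tested on its own only after its values were seen, and neither the H nor the HHC difference passed under every setting given below. A start site 27.8 kb further into Gpam carried H3K4me3 in all 21 libraries. Lpin2 went the other way: an internal start site 21.1 kb into the gene carried H3K4me3 in the 3 HHC libraries and in none of the other 18. The Mogat1 promoter had no H3K4me3 peak in any H library. No member promoter that was tested passed in HC against CC_s, where no gene at all passed for H3K4me3, H3K27ac or H3K4me1. Outside promoters, 2 H3K4me1 regions were higher in HHC than in CCC under each of 5 other settings and without each of the 22 libraries. They lay 7.2 kb into Lpin2 and 55.3 kb beyond the Dgat2 start, in Uvrag, beside 11.8% of all distal regions called.

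The sequences just upstream of the start sites on which these results turn are given 5′ to 3′ on the strand of the gene, from the RefSeq promoter sequences (GRCm38.p6), in lower case with every match to a searched motif in capitals. The motifs, searched on both strands, were the TATA box (TATAAA), the CCAAT box (CCAAT), the cAMP response element (TGACGTCA) and its Pck1 form (TTACGTCA), the E-box (CACGTG), the C/EBP core (TTGCNNAA), the GC box (GGGCGG), the AP-1 site (TGANTCA) and the PU.1 core (GAGGAAGT). They occurred in 12.4%, 33.9%, 1.55%, 0.448%, 6.02%, 9.57%, 32.7%, 6.75% and 2.44%, respectively, of 32841 promoter sequences of the same length. For Gpam and Lpin2, the start with an H3K4me3 peak in some libraries only is shown beside a start with the peak in every library. The other start may still differ in coverage or in other marks. Mogat1 and Pck1 are shown because their promoters held the other large differences.
Gpam first start, chr19:55127239-55127488, minus strand: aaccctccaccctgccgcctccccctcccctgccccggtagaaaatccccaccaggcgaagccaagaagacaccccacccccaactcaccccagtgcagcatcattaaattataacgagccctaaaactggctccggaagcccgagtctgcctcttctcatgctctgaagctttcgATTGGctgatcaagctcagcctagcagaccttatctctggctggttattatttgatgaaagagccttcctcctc
Gpam start at +27.8 kb, chr19:55099478-55099727, minus strand: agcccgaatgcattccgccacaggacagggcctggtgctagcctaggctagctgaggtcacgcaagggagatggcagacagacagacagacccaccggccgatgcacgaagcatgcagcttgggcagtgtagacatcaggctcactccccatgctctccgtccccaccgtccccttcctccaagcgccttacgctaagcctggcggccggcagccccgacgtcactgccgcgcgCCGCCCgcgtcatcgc
Lpin2 first start, chr17:71183282-71183531, plus strand: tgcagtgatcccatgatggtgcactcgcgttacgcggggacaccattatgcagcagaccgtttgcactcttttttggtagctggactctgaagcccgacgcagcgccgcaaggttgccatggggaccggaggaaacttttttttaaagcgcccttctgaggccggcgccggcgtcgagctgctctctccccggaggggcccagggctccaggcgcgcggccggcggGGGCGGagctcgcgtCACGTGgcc
Lpin2 start at +21.1 kb, chr17:71204404-71204653, plus strand: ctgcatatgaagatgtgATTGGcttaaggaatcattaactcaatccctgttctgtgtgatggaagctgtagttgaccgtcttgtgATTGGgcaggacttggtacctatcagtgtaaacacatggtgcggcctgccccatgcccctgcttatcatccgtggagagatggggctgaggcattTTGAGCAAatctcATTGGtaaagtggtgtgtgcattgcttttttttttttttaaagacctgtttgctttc
Mogat1 start, chr1:78510810-78511059, plus strand: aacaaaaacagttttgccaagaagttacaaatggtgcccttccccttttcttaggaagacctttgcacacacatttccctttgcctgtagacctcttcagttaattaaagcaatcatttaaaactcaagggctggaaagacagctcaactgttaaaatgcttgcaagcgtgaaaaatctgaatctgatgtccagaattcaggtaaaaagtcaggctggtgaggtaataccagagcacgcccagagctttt
Pck1 start, chr2:173152823-173153047, plus strand: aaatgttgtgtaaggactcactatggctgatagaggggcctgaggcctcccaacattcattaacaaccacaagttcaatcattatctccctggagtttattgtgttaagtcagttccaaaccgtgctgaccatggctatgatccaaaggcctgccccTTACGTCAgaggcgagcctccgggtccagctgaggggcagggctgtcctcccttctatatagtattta
The 2 Gpam sequences differed in CpG content, with an observed over expected CpG ratio of 0.428 at the first start, which held 1 CCAAT box (as ATTGG), and 0.789 at the start further in, which held 1 GC box. Of the 250 bases upstream of that start, 131 lie in an exon of a noncoding gene on the other strand, and peaks of the 2 genes cannot be told apart there. In Lpin2 the first start lay in a CpG-rich sequence (ratio 0.982, with 1 GC box and 1 E-box), whereas the internal start did not (ratio 0.245, with 3 CCAAT boxes and 1 C/EBP core). The Mogat1 sequence had a ratio of 0.189 and none of the motifs, against a median ratio of 0.374 over all promoters. The 225 bases shown for Pck1 end where its first exon begins and hold the Pck1 form of the cAMP response element.

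Each deposited peak list gave 11249 to 46397 peaks covering 8.54 to 133 Mb, and the width covered differed between the groups compared. For H3K4me3 it was 41 to 53.4 Mb in C and 11 to 30.2 Mb in H, 78.2 to 79.4 Mb in CCC and 73 to 100 Mb in HHC. For H3K27ac it was 42.8 to 49 Mb in C and 9.60 to 24.4 Mb in H, and the 2 CCC libraries stood at 20.9 and 94.3 Mb against 94.8 to 109 Mb in HHC. The lists hold no read totals, so the depth is unknown, and every test was repeated with the log2 width covered by each library as a covariate (the width-adjusted fit). The 10 adipocyte marker promoters were all H3K4me3-marked in each C and CCC library, with a mean coverage of 80.4 to 83.5% in C. In H, 7 to 9 were marked, with 45.4 to 54.3% for H3K4me3 and 25.1 to 45.6% for H3K27ac (79.8 to 90.8% in C), with Cfd at 0 for both marks. Macrophage markers were H3K4me3-marked at 2 to 4 of 10 promoters in C and at 8, 9 and 0 in H replicates 1, 2 and 3, endothelial markers at 4 to 6 in C and 9, 8 and 0 in H. In HHC, 6 to 10 of the adipocyte marker promoters were H3K4me3-marked, and replicate 3 had the lowest adipocyte marker coverage for H3K4me3 and H3K27ac. HH replicate 1 stood as low for H3K27ac and H3K4me1, with a mean adipocyte marker coverage of 30.8% and 11.8%, so results that rest on either library are also given without both (HH replicate 1 has no H3K4me3 library). HC replicate 3 stood apart too, with 24.6% for H3K4me3, 22.7% for H3K27ac and 4.26% for H3K4me1, and with 5 macrophage, 5 lymphocyte and 7 endothelial promoters H3K4me3-marked. Macrophage markers were H3K4me3-marked at 2 to 5 of 10 promoters in CCC and 8 to 9 in HHC. Titles and the treatment field named different groups for 4 H3K4me3 libraries of the 25-week cohort. The titles were used, and H3K4me3 calls are given by the treatment field where that changes them.

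Before any comparison, the members were well-marked promoters. H3K4me3 was present in all 21 libraries at Gpam, Agpat2, Lpin1, Lpin2, Dgat1 and Dgat2, in 20 at Agpat3 and Pck1, and in 17 at Lpin3 and Mogat1. The median coverage of the promoter windows by H3K4me3 peaks was highest at Pck1 (100%), Dgat2 (92.2%), Agpat2 (81.1%) and Dgat1 (78%), and lowest at Lpin3 (31.7%) and Lpin1 (33.4%), genes whose windows span several starts. Each peak's summed signal was ranked within its own library, and the control libraries placed Dgat2, Pck1, Lpin1 and Dgat1 at median percentiles of 99.8, 99.7, 99.7 and 99.2. H3K27me3 was found in no library at Agpat2 or Dgat1, in 1 library at Gpam, Agpat3, Lpin2 and Pck1, in 4 of 20 at Lpin3, 5 at Lpin1, 7 at Dgat2 and 12 at Mogat1.

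**Figure D1:**
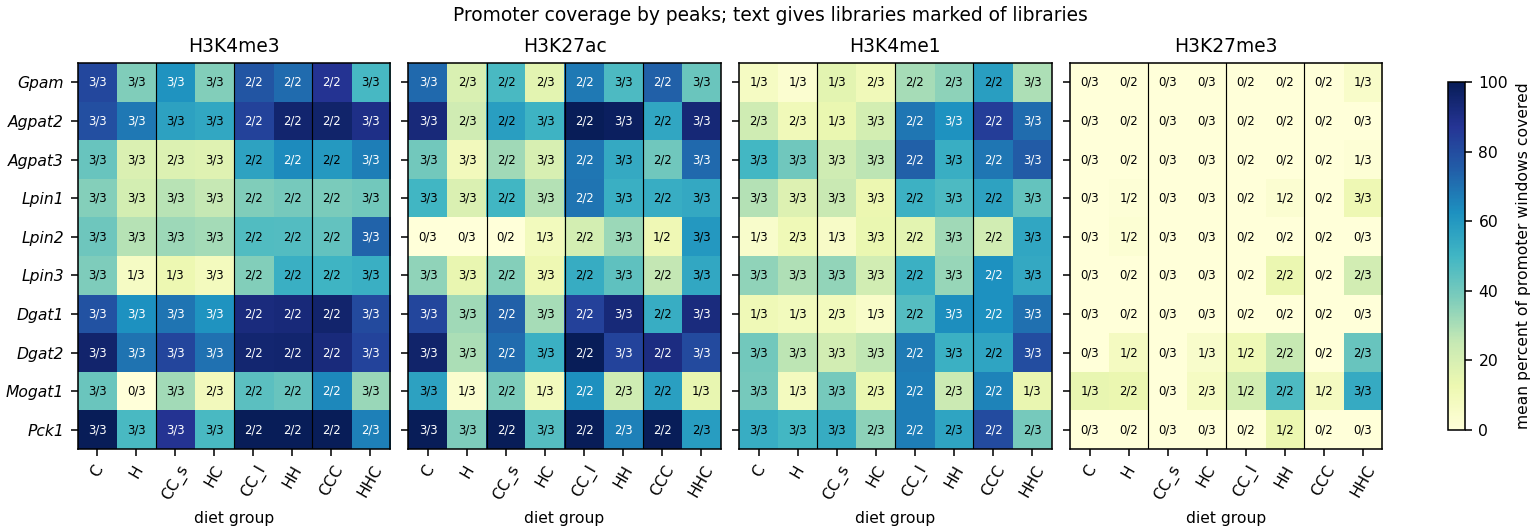
Mean percent of each member's promoter windows covered by peaks (colour) in each of the 8 diet groups for each of the 4 marks, with the number of libraries holding a peak out of all libraries of the group written in each cell. H3K27me3 panels are pale for Agpat2 and Dgat1, which held no peak in any library, and the H cell of Mogat1 for H3K4me3 reads 0 of 3.

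Tests were run with limma on the percent of each promoter covered, with Benjamini-Hochberg adjustment over every gene tested for that mark. All 10 members could be tested for H3K4me3, H3K27ac and H3K4me1. For H3K27me3 only Lpin1, Lpin3, Dgat2 and Mogat1 had a peak in at least 2 libraries. In H against C, 2 members were lower for H3K4me3 (Gpam and Mogat1), beside 13.9% of all genes called, and 3 were lower for H3K27ac (Agpat2, Dgat2 and Mogat1), beside 3.13%. No member was called for H3K4me1 or H3K27me3 in this comparison, beside 0% and 4.2%. In HC against CC_s no member was called, beside 0%, 0%, 0% and 4.14% of genes for H3K4me3, H3K27ac, H3K4me1 and H3K27me3; nor was any in HH against CC_l, beside 1.41%, 0.241%, 2.34% and 0.8%. In HHC against CCC, Gpam was lower for H3K4me3 (background 3.59%), Lpin2 was higher for H3K27ac (5.27%) and for H3K4me1, Mogat1 was lower for H3K4me1 (14.5%), and no member was called for H3K27me3 (0.889%).

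The median difference of the members in H against C was −24.6 percentage points for H3K4me3 and −51.6 for H3K27ac, beside −16.5 and −12.8 over all genes tested. In HHC against CCC it was −7.79 for H3K4me3, 15.3 for H3K27ac and −10.6 for H3K4me1, beside 3.65, 21.6 and 10.3 over all genes. In the width-adjusted fit the member medians in HHC against CCC were −9.21 for H3K4me3, −11.3 for H3K27ac and −16.1 for H3K4me1. The medians over all genes were 1.34, 6.08 and 8.73, so the member median for H3K27ac changed sign. In the same fit no member was called in H against C. The member medians in H against C were −8.73 for H3K4me3 and −5.06 for H3K27ac, and those over all genes −0.97 and 6.71. The Mogat1 differences stayed close to their size there (−39.2 for H3K4me3 and −45.3 for H3K27ac), Gpam was at −33.5 and Dgat2 at −39, and Agpat2 was at −5.61. The parts that covered width and the fewer adipocyte markers of the H libraries have in these calls were not tested. The libraries are of bulk nuclei, and fewer nuclei with a mark and less of the mark per nucleus cannot be told apart.

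**Figure D2:**
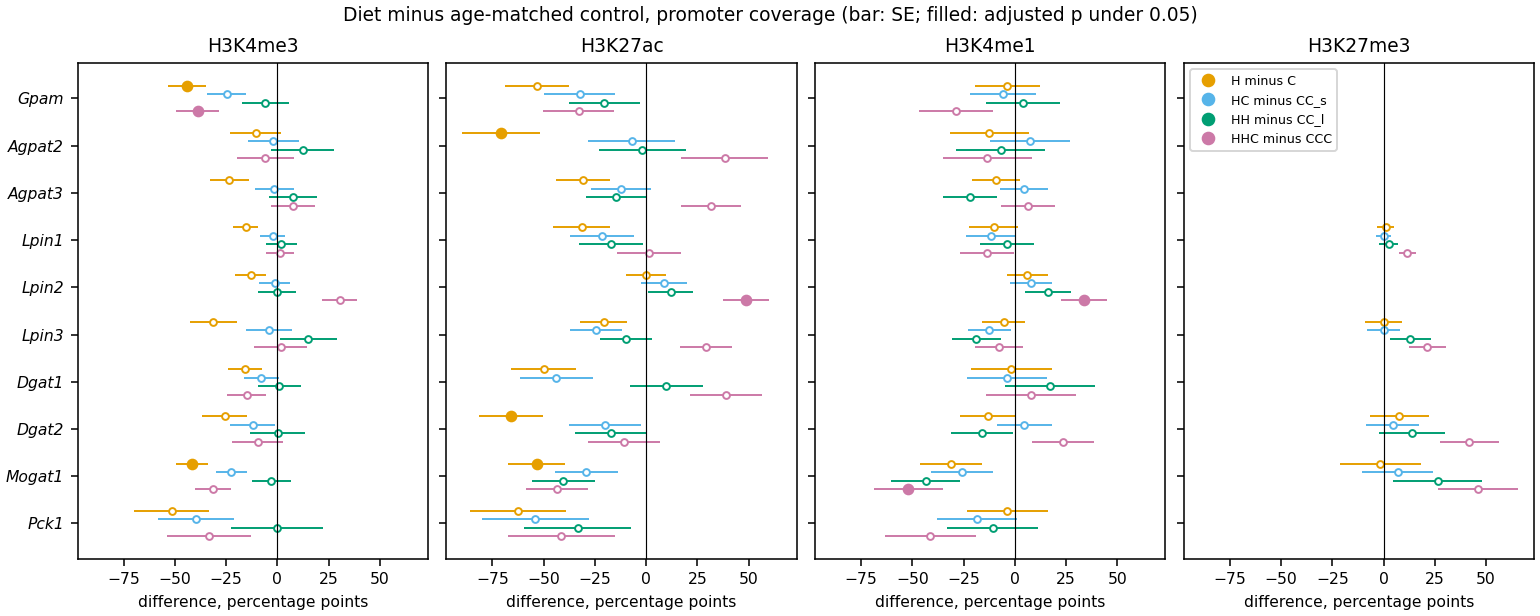
Difference in the percent of promoter windows covered (x axis, percentage points, diet minus age-matched control) for each member (y axis) and mark, with 1 point per comparison, bars for the standard error and filled points where the adjusted p was under 0.05. Points of H against C lie left of 0 for the 10 members in H3K4me3 and left of or at 0 in H3K27ac, and the filled points right of 0 belong to Lpin2.

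Gpam, the first enzyme of the pathway, was the member with the largest H3K4me3 differences that passed. Over its pooled promoter windows, 73.8 to 88.6% was covered in C and 32.5 to 43.1% in H, a difference of −44.2 ± 9.46 (SE; limma adjusted p = 0.0103) that held without each of the 6 libraries in turn. The 2 CCC libraries had 86.2 and 89.3% and the 3 HHC libraries 48.9, 49.9 and 47.5%, a difference of −39 ± 10.6 (limma adjusted p = 0.0465). That call was lost without any 1 of the 5 libraries, with an adjusted p of up to 0.310, and by the treatment field (−28, adjusted p = 0.394). The C and H libraries did not overlap, nor did the CCC and HHC libraries. The share of all promoters, start windows or distal regions without overlap is not given, here or below. The H libraries covered less width than the C libraries throughout. Lack of overlap is therefore a description of these libraries and no test.

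Gpam has 3 annotated starts in 2 separate windows, and these were then tested on their own, a step chosen after the values were seen, over all start windows of all genes. At the first window (chr19:55125203-55129216), H3K4me3 covered 63.9, 47.7 and 77.3% in C and 0, 0 and 0% in H. It covered 0, 22.1 and 71.4% in CC_s and 0, 0 and 0% in HC. In the 25-week cohort it covered 41.1 and 69.8% in CC_l, 40.3 and 61.8% in HH, 72.5 and 78.6% in CCC, and 0, 0 and 0% in HHC. The H, HC and HHC libraries were thus all without the peak, whereas both HH libraries had it and overlapped their controls. The difference was −63 ± 12.8 in H against C (limma adjusted p = 0.00801; background 14.3% of start windows called) and held without each of the 6 libraries. In the width-adjusted fit it was −43.4 with an adjusted p of 0.320. The difference was −75.5 ± 14.3 in HHC against CCC (limma adjusted p = 0.00279; background 3.96%), −78.2 in the width-adjusted fit (adjusted p = 0.00115), and −75.5 without HHC replicate 3 and HH replicate 1 (adjusted p = 0.0101). It was lost without CCC replicate 3 (adjusted p = 0.0508) and by the treatment field, which puts HH replicate 2 in CCC in place of CCC replicate 3 (−56.4, adjusted p = 0.0811). No start window of any gene was called for H3K4me3 in HC against CC_s (0%), and 1.67% were in HH against CC_l, with no member among them.

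The other 3 marks were read at the same Gpam window, beside start-window backgrounds for H3K27ac of 3.91%, 0%, 0.175% and 5.34% and for H3K4me1 of 0%, 0%, 2.47% and 14.5% in H, HC, HH and HHC. H3K27ac covered 68.8, 38.7 and 36.6% in C, 0, 0 and 0% in H, 27.8 and 44.5% in CC_l, 0, 0 and 43.4% in HH, 97.6 and 30.1% in CCC and 0, 0 and 0% in HHC. Of the 9 controls 8 held it, 1 CC_s library being the exception, and of the 12 diet libraries 1 did, from HH. The HHC against CCC difference of −63.8 ± 17.4 passed (limma adjusted p = 0.0388), but was lost without CCC replicate 1, HHC replicate 1 or HHC replicate 3 (adjusted p up to 0.163), and without HHC replicate 3 and HH replicate 1 together (adjusted p = 0.0958). H3K4me1 was held by 4 of the 10 controls and by 1 of the 12 diet libraries, and by none in C or H. It covered 62.4 and 81.3% in CCC and 0, 0 and 0% in HHC, a difference of −71.9 ± 18 (limma adjusted p = 0.0111) that was lost without CCC replicate 3 (adjusted p = 0.103). H3K27me3 was found there in HHC replicate 3 alone, over 29% of the window.

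At the Gpam window 27.8 kb further in (chr19:55097451-55101451), H3K4me3 covered 100, 100 and 100% in C, 86.3, 65.1 and 72.7% in H, 100 and 100% in CCC, and 98, 100 and 95.1% in HHC. The lowest of the 21 libraries, HC replicate 3, had 53.5%, so no library lacked the peak. The difference did not pass in H against C (−25.3 ± 8.70, limma adjusted p = 0.0561) or in HHC against CCC (−2.28 ± 9.73, adjusted p of 1). The 2 windows of Gpam therefore gave different readings in the same HHC libraries: all 3 were at 0% in the first and at 95.1% or more in the other.

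**Figure D3:**
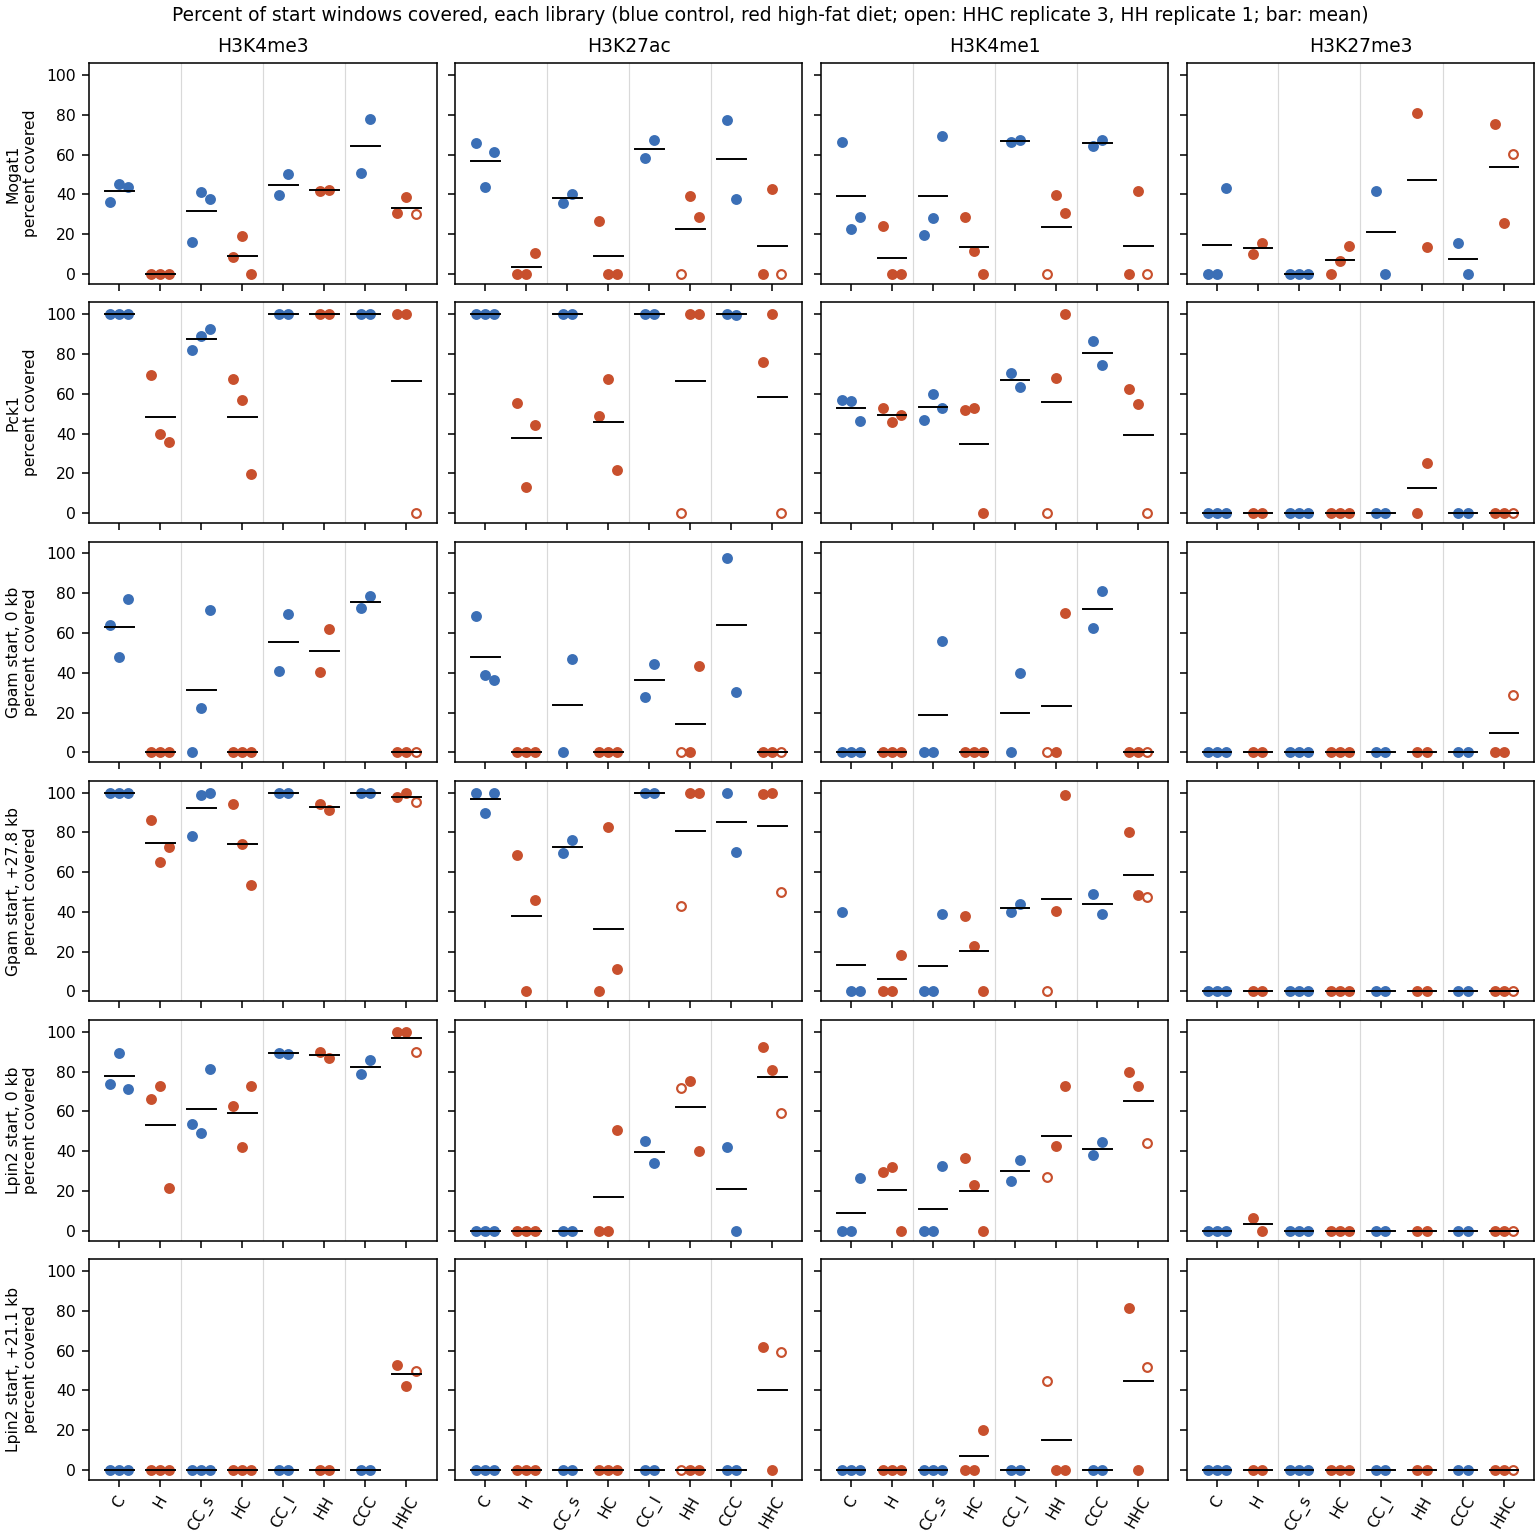
Percent of a start window covered by peaks (y axis) in every library of the 8 diet groups (x axis), in 1 column of panels per mark and 1 row each for Mogat1, Pck1, the 2 Gpam windows and the first and +21.1 kb Lpin2 windows. Blue points are control libraries, red points high-fat-diet libraries, open points HHC replicate 3 and HH replicate 1, and bars group means. The H3K4me3 points of H, HC and HHC lie at 0 in the first Gpam window, and those of HHC alone rise above 0 in the Lpin2 window at +21.1 kb.

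**Figure D4:**
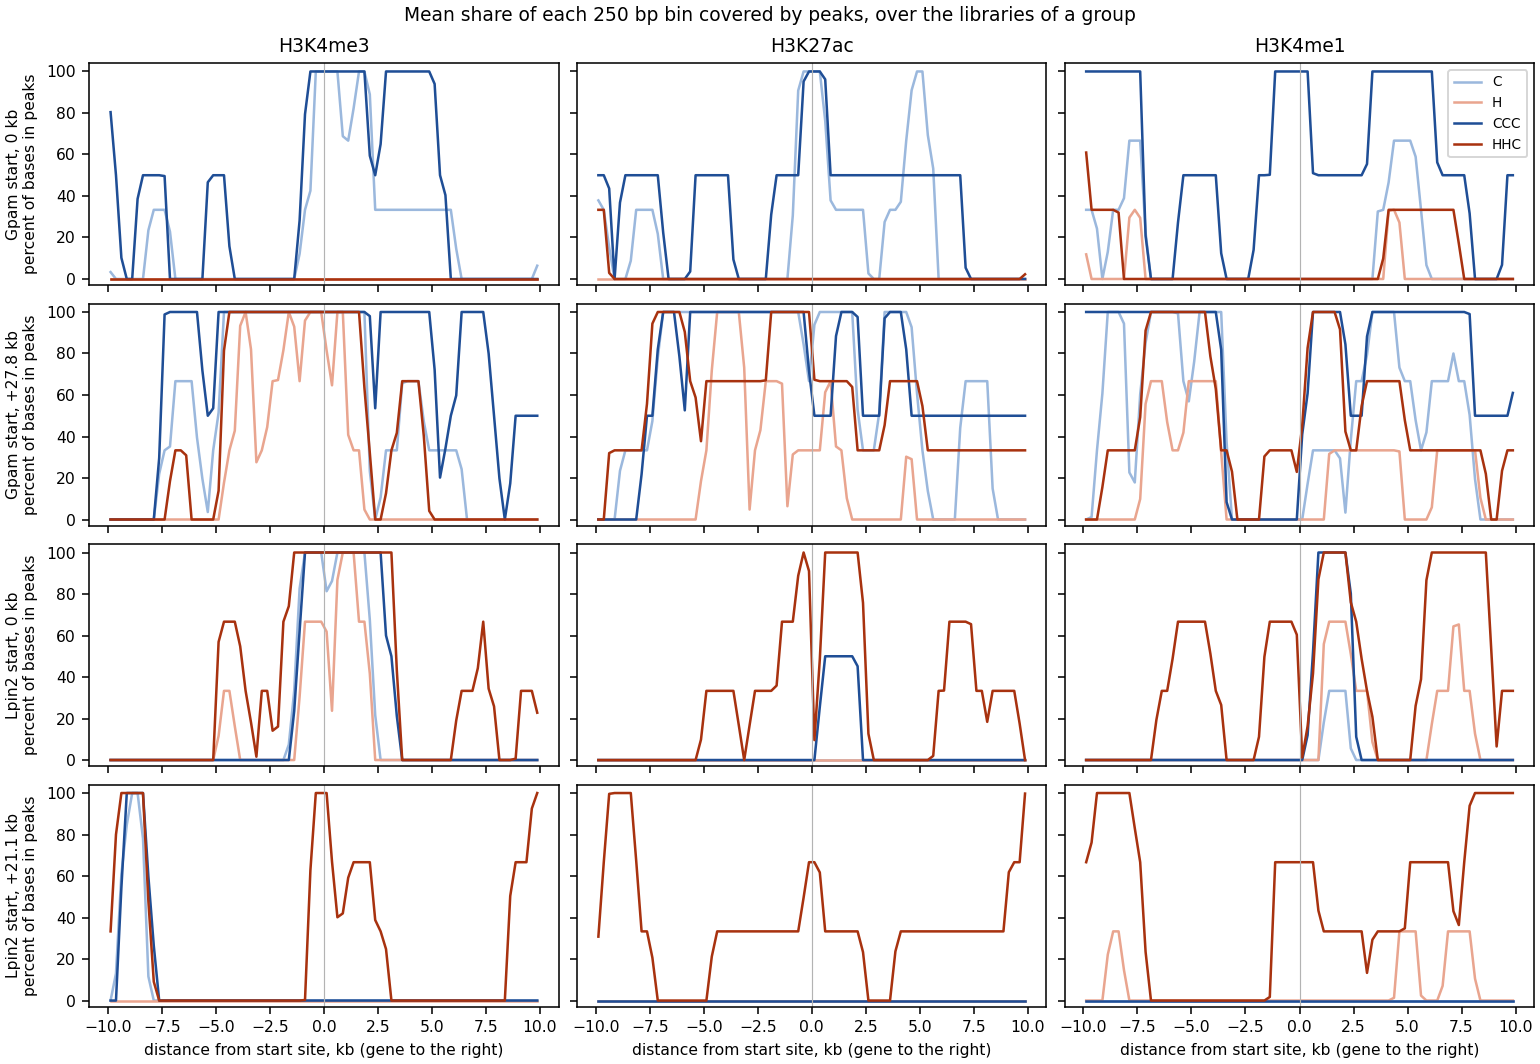
Mean percent of each 250 bp bin covered by peaks (y axis) by distance from the start site in kb (x axis, gene to the right), over the libraries of C, H, CCC and HHC, for the 2 Gpam and 2 Lpin2 start windows and 1 column of panels per mark. At the first Gpam start the H3K4me3 lines of H and HHC lie at 0 over the window, and at the Lpin2 start at +21.1 kb the HHC line stands alone.

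Agpat2, the acyltransferase gene mutated in a form of congenital lipodystrophy, was lower for H3K27ac in H. H3K27ac covered 100, 100 and 77.8% of its promoter in C and 53.9, 0 and 12.1% in H, and the groups did not overlap. The difference was −70.6 ± 19.1 (limma adjusted p = 0.0492), and it was lost without C replicate 1, 2 or 3 or H replicate 2 or 3, with an adjusted p of up to 0.237. It passed in 5 of the 21 fits that left out any 1 library. In the width-adjusted fit it was −5.61, with an adjusted p of 1. In HHC the same promoter had 100, 100 and 80.9% and in CCC 100 and 10.4%. H3K4me3 covered 74.4, 81.1 and 81.9% in C and 68.1, 77 and 60.7% in H, with no call in any comparison.

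Agpat3 has 6 starts in 2 windows, and its first window (chr10:78349700-78354442) had H3K4me3 over 51.1, 55.5 and 52.3% in C and 0, 17.4 and 0% in H. The groups did not overlap, and the difference of −47.1 had a limma adjusted p of 0.0288, which was lost without C replicate 1, 2 or 3 or H replicate 1 or 3 (up to 0.128) and in the width-adjusted fit (0.767). In HHC the window had 69.1, 78.8 and 67.9% and in CCC 67.8 and 82.5%, so the 25-week groups overlapped.

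Among the lipins, phosphatidic acid phosphatases that also act as transcriptional coregulators, Lpin2 was the member with higher marks in HHC. At its internal start window (chr17:71202676-71206676), H3K4me3 covered 52.9, 42.2 and 49.5% in HHC and 0% in each of the other 18 libraries, HH included. The window passed the filter of 2 marked libraries through HHC alone, so these values are given as a description with no test. H3K27ac covered this window at 61.6, 0 and 59.3% in HHC and at 0% in the other 18 libraries, again a description for the same reason. H3K4me1 covered it at 81.5, 0 and 51.9% in HHC, 44.9, 0 and 0% in HH and 0 and 0% in CCC, and did not pass (limma adjusted p = 0.0619). HHC replicate 2 was the library without either mark there.

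The first Lpin2 window (chr17:71181556-71185978) was H3K4me3-marked in all 21 libraries, at 100, 100 and 90% in HHC and 78.8 and 85.7% in CCC, and did not pass (limma adjusted p = 0.800). H3K27ac covered it at 92.2, 80.8 and 59.3% in HHC, 71.8, 75.2 and 39.9% in HH, 45 and 34% in CC_l, 41.9 and 0% in CCC, and 0% in the C, H and CC_s libraries. Of the 9 controls 3 had it, and of the 12 diet libraries 7. The HHC against CCC difference of 56.5 (limma adjusted p = 0.0450) was lost without CCC replicate 3, HHC replicate 1 or HHC replicate 2 (adjusted p up to 0.490). Over the pooled windows, H3K27ac was 48.8 ± 11.1 points higher (limma adjusted p = 0.0190; lost without CCC replicate 3 or HHC replicate 1 and, at 39.7 points, in the width-adjusted fit, 0.137) and H3K4me1 33.8 ± 11.2 points higher in HHC (adjusted p = 0.0487; lost without CCC replicate 1, CCC replicate 3, HHC replicate 1 or HHC replicate 3). Pooled H3K4me3 was 30.5 ± 8.48 points higher (limma adjusted p = 0.0534), and 28.2 points in the width-adjusted fit (adjusted p = 0.00621). The pooled windows include the internal window, which held H3K4me3 and H3K27ac in HHC alone. The pooled values of these marks are therefore not independent of that description and add no separate test of it.

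Markers of blood cells were higher in the same HHC libraries. Lymphocyte markers were H3K4me3-marked at 1 of 10 promoters in each CCC library and 7 to 10 in HHC, with a mean coverage of 1.84 to 1.95% and 29 to 67.8%, and the T-cell markers Cd3e, Cd3g, Cd4 and Cd8a were among those at 0 in CCC. The macrophage list had a mean coverage of 13 to 21.9% in CCC and 25.6 to 58.7% in HHC, with Adgre1, Lyz2, Mrc1 and Fcgr1 at 0 in CCC and Itgam at 0 in both. In the HH libraries, where the internal Lpin2 start had no H3K4me3, 9 of 10 macrophage markers (41.1 to 62.8%) and 4 to 6 of 10 lymphocyte markers (9.65 to 17.2%) were marked. Endothelial markers were marked at 4 of 10 promoters in CCC, 6 to 8 in HHC and 9 in HH. Progenitor markers were marked at 6 in CCC and 7 to 9 in HHC, mural at 7 and 5 to 8, and mesothelial at 3 to 4 and 2 to 4. The part of these cells in the Lpin2 values was not tested.

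Lpin1, the main lipin of adipocytes, held its H3K4me3 mainly at a start 21.2 kb inside the annotated gene. At that window (chr12:16587766-16591773) H3K4me3 covered 100, 100 and 100% in C, 76.1, 65.4 and 47.8% in H, and 100% in every HH, CCC and HHC library. The difference of −36.9 in H against C passed (limma adjusted p = 0.0182), and was lost without C replicate 2, C replicate 3 or H replicate 3 (up to 0.101) and in the width-adjusted fit (0.609). H3K27ac there was 47.6 points lower in H (limma adjusted p = 0.0421), a call lost without C replicate 1, 2 or 3 or H replicate 2 or 3 (up to 0.239). Its first window (chr12:16608966-16612966) had H3K4me3 in 6 of 21 libraries, at no more than 35.7%.

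Lpin3, the third lipin, had H3K4me3 over 54.3, 56.6 and 56.3% of its first window (chr2:160878670-160882670) in C and 0, 23.7 and 0% in H. The difference was −47.8 (limma adjusted p = 0.0456), and it was lost without C replicate 1, 2 or 3 or H replicate 1 or 3 (up to 0.189) and in the width-adjusted fit (0.945). In HHC the window had 30.8, 63.4 and 61.4% and in CCC 65.5 and 74.5%, with no call and HHC wholly below CCC.

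Dgat1 and Dgat2 encode unrelated enzymes for the last step. Dgat2 had the widest member peak, an H3K27ac peak of 41333 bp. H3K27ac covered 94, 98.7 and 94.8% of its promoter in C and 45, 17.9 and 26.7% in H, without overlap. The difference was −65.9 ± 15.7 (limma adjusted p = 0.0332) and was lost without C replicate 1, 2 or 3 or H replicate 2 or 3 (up to 0.186). In the width-adjusted fit it was −39, with an adjusted p of 0.643. H3K4me3 at Dgat2 covered 93.1, 94 and 99.8% in C and 79.3, 68.3 and 62.1% in H, and did not pass (−25.7, limma adjusted p = 0.101). Dgat1 had 87.8, 79.9 and 78.5% H3K27ac in C and 57.3, 16.4 and 22.3% in H, again without overlap, and did not pass (limma adjusted p = 0.0813).

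At Mogat1, whose product uses monoacylglycerol, H3K4me3 covered 36.3, 45.1 and 43.5% of the promoter in C and 0, 0 and 0% in H. It covered 16.1, 41.1 and 37.6% in CC_s, 8.45, 19.1 and 0% in HC, 39.8 and 50% in CC_l, 41.7 and 42.2% in HH, 51 and 78% in CCC, and 30.5, 38.7 and 30% in HHC. The H libraries were the only group without any peak, and HHC lay wholly below CCC. The H against C difference was −41.7 ± 7.77 (limma adjusted p = 0.00623), it held without each of the 6 libraries, and it was −39.2 in the width-adjusted fit (adjusted p = 0.164). HHC was 31.4 ± 8.69 points below CCC and did not pass (limma adjusted p = 0.0517), with 0.0418 in the width-adjusted fit, and −13.3 by the treatment field (adjusted p = 0.916).

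H3K27ac at Mogat1 covered 66.1, 43.5 and 61.2% in C, 0, 0 and 10.5% in H, 58.3 and 67.5% in CC_l, 0, 39.1 and 28.5% in HH, 77.3 and 37.9% in CCC and 0, 42.5 and 0% in HHC. All 9 controls and 5 of the 12 diet libraries held it. The H against C difference of −53.4 ± 13.7 (limma adjusted p = 0.0436) was lost without any 1 of its 6 libraries, C replicates 1 to 3 and H replicates 1 to 3 (up to 0.186). H3K4me1 was held by all 10 controls and 6 of the 12 diet libraries, at 64.3 and 67.4% in CCC and 0, 41.7 and 0% in HHC. That difference was −51.9 ± 16.9 (limma adjusted p = 0.0454), was lost without CCC replicate 1, CCC replicate 3, HHC replicate 1 or HHC replicate 3 (up to 0.154), and was −61.8 in the width-adjusted fit (adjusted p = 0.00414). H3K27me3 ran the other way, with a peak in 3 of 10 control and 9 of 10 diet libraries. It covered 75.5, 25.5 and 60.3% in HHC and 15.3 and 0% in CCC, a difference of 46.1 ± 19.6 that did not pass (limma adjusted p = 0.257). The Mogat1 window overlaps the promoter of BC035947, and peaks of the 2 genes cannot be told apart there.

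At Pck1, a fasting- and PPARγ-responsive gene in fat, every control library but those of CC_s had H3K4me3 over 100% of the promoter. The H libraries had 69.5, 40 and 35.8%, the HC libraries 67.5, 56.9 and 19.9% against 81.8, 89 and 92.7% in CC_s, and the HHC libraries 100, 100 and 0%. H lay wholly below C and HC wholly below CC_s, whereas the HHC value rested on replicate 3, which had few adipocyte markers. The lowest HC library was replicate 3, with few of them as well. The part of the adipocyte markers in the Pck1 values was not tested. The H against C difference was −51.6 ± 18.4 (limma adjusted p = 0.0628) and the HC against CC_s difference −39.7 ± 18.4 (adjusted p of 1), and neither passed. H3K27ac was 100, 100 and 100% in C, 55.6, 13.1 and 44.3% in H, 0, 100 and 100% in HH and 75.8, 100 and 0% in HHC, with HH replicate 1 and HHC replicate 3 at 0.

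By presence alone, a mark was counted as lost when every control library and no diet library had a promoter peak, and as gained in the reverse case. The members gave 3 such cases. Mogat1 lost H3K4me3 in H, where 2.7% of genes with the mark were gained or lost. Lpin3 gained H3K27me3 in HH (2 libraries against 2; background 5.52%), at 21.7 and 4.45%, and Lpin1 gained it in HHC (3 against 2; background 5.6%), at 2.70, 8.91 and 23%. There were none among the members for H3K4me3 in the other comparisons (0.551% in HC, 2.61% in HH and 2.51% in HHC), for H3K27ac (4.24%, 1.48%, 1.37% and 3.85% in H, HC, HH and HHC), for H3K4me1 (3.26%, 1.03%, 4.84% and 7.25%), or for H3K27me3 in H and HC (11% and 3.34%). These are descriptions of 2 or 3 libraries a group, without a test.

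A list of 23 other genes of triglyceride synthesis was read in the same fits. In H against C, 3 of 22 tested were lower for H3K4me3, close to the 13.9% of all genes called: Gpat4 (−45, limma adjusted p = 0.0117), an acyltransferase of the endoplasmic reticulum, Plpp3 (−31.8, adjusted p = 0.0353), a lipid phosphatase, and Gpd1 (−65.5, adjusted p = 0.0234), which makes glycerol-3-phosphate. For H3K27ac, 3 of 21 were lower, beside 3.13% of all genes: Gpat3 (−68.9, limma adjusted p = 0.0173) and Gpat4 (−66.1, adjusted p = 0.0332), acyltransferases, and Acsl1 (−69.3, adjusted p = 0.0452), which activates fatty acids. In HHC against CCC 1 of 20 was lower for H3K4me1, beside 14.5% of all genes, Acsl3 (−58, limma adjusted p = 0.0286), and none of the 5 tested for H3K27me3 passed. None was higher at its promoter for any mark, and of the 7 calls only that of Acsl3 held in the width-adjusted fit. The median difference over this list in H against C was −19.4 for H3K4me3 and −24.3 for H3K27ac, and −4.65 and 4.95 in the width-adjusted fit.

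Over the gene body and 50 kb flanks with all promoters removed, no member was called in H against C (background 0%, 0%, 0% and 0.186% for H3K4me3, H3K27ac, H3K4me1 and H3K27me3), in HC against CC_s (0%, 0%, 0% and 0.085%) or in HH against CC_l (7.52%, 0.292%, 0.33% and 0.319%). In HHC against CCC, 2 members were lower for H3K4me3 (background 25.9%). Gpam was 8.90 ± 2.41 points lower (limma adjusted p = 0.0135; lost without CCC replicate 1 or 3, up to 0.0993), with 30 to 31.6% of its gene body covered in CCC and 5.20 to 14% in HHC. Dgat2 was 23.8 ± 7.24 points lower (limma adjusted p = 0.0239), with 92.3 to 100% of the gene body in CCC and 3.39 to 73.1% in HHC. The Dgat2 call was lost without CCC replicate 1, CCC replicate 3 or HHC replicate 3, and without HHC replicate 3 and HH replicate 1 the difference was −15.9 (adjusted p = 0.0987). Both were lost by the treatment field (−3.19 and −16.2, adjusted p = 0.469 and 0.203).

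For H3K27ac, Lpin2 was 9.44 ± 3.05 points higher in HHC (limma adjusted p = 0.0317; background 27.9%), a call lost without CCC replicate 3 or HHC replicate 1 and in the width-adjusted fit (4.99, adjusted p = 0.210). For H3K4me1 (background 23.9%), Gpam was 16.8 ± 4.72 points lower (limma adjusted p = 0.0157; lost without CCC replicate 3 or HHC replicate 3) and Lpin2 11 ± 3.48 points higher (adjusted p = 0.0280; lost without CCC replicate 1, HHC replicate 1 or HHC replicate 3). Within Lpin2, H3K4me1 covered 0.222 to 6.27% of the gene body in CCC and 26.4 to 32.5% in HHC, while the downstream flank overlapped, at 43.6 to 66.2% and 45.9 to 56.2%. None passed for H3K27me3 (background 6.57%), with Pck1 the nearest at 12.9 ± 3.79 points higher in HHC (limma adjusted p = 0.0518).

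Distal regions were merged peaks away from every promoter. The member loci held 119 for H3K4me1, of which 94 were tested, and 139 for H3K27ac, of which 102 were. For H3K4me1 none was called in H against C or HC against CC_s (background 0% and 0%), 3 were lower in HH against CC_l (1.98%), and 7 were higher and 4 lower in HHC against CCC (11.8%). The higher regions include Agpat3 at −47.7 kb (chr10:78398670-78401642), covered only in HHC replicates 1 and 3, at 75.2 and 85.3%. It passed the filter of 2 marked libraries through HHC alone, so its values are a description with no test. For H3K27ac none was called in H against C, HC against CC_s or HH against CC_l (0.00693%, 0% and 1.53%), and 1 was higher in HHC against CCC (2.32%), a region 51.8 kb beyond the Dgat2 start, in Uvrag (chr7:99123533-99138238). It was covered at 77.2, 53.7 and 56% in HHC and 8.65 and 0% in CCC (58 ± 15.8, limma adjusted p = 0.0492), and was lost without CCC replicate 1 or 3 (up to 0.0773) and in the width-adjusted fit, where the difference was 55.5 (0.115). The median H3K4me1 difference of the member regions in HHC against CCC was −17.6 points, beside 2.87 over all regions tested.

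Of the 7 higher H3K4me1 regions, 4 lay in or beside Lpin2, 3 of them inside the gene and on either side of its internal start. Of the 4 lower regions 1 was at the Lpin2 locus too, in Emilin2 (chr17:71299196-71301275), with 57.9 and 91.1% in CCC and 0, 0 and 0% in HHC (limma adjusted p = 0.0446, lost without each of the 5 libraries). The intronic region at +7.2 kb (chr17:71188860-71192569) was covered at 81.2, 86.9 and 95.7% in HHC, 26.5, 67.4 and 57.4% in HH, 29.1, 36.9 and 0% in H, 0, 0 and 19% in HC, and 0% in every control library. The 10 control libraries were thus all without it and 9 of 12 diet libraries had it. The HHC against CCC difference was 87.9 ± 15.3 (limma adjusted p = 0.00129), 86.5 in the width-adjusted fit (adjusted p = 0.00155), and it held without each of the 22 libraries. The region at +11.6 kb (chr17:71192757-71197546) had 74.9, 51 and 89.6% in HHC against 0 and 0% in CCC (limma adjusted p = 0.00796), and that at +29.3 kb (chr17:71207956-71217779), which overlaps an exon, 68.4, 42.4 and 98.7% against 0 and 0% (adjusted p = 0.0107). Both were lost without CCC replicate 3 (limma adjusted p = 0.0562 and 0.0754). Control libraries of CC_l held them, at 19.9 and 35.3% at +11.6 kb and 15.5 and 0% at +29.3 kb. The HH libraries had 28.3, 32.9 and 44.3% at +11.6 kb and 35.9, 0 and 0% at +29.3 kb.

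The 300 bases at the middle of the Lpin2 region at +7.2 kb and of the Mogat1 region at −3.3 kb are given from the same assembly, on the plus strand, because they are the distal regions with the smallest adjusted p in HHC against CCC and in HH against CC_l.
Lpin2 region at +7.2 kb, chr17:71190564-71190863: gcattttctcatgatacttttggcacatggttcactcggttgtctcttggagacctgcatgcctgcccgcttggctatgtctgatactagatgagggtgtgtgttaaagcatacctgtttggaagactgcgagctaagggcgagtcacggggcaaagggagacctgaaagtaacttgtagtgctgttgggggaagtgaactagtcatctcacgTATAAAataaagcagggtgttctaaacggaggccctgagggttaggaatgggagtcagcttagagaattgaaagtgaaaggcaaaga
Mogat1 region at −3.3 kb, chr1:78507695-78507994: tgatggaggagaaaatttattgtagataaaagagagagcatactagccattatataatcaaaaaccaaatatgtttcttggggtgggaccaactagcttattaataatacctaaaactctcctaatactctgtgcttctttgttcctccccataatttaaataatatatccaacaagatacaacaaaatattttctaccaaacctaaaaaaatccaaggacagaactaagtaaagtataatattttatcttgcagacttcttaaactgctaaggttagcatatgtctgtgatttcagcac
The Lpin2 stretch held 7 CpG and 1 TATA box, and the Mogat1 stretch had neither a CpG nor a motif of the list. Neither overlaps an exon.

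The Mogat1 region (chr1:78506523-78509168, within BC035947) was covered by H3K4me1 at 98.1 and 90.1% in CC_l and 0, 0 and 0% in HH, and at 10.7 and 100% in CCC and 0, 0 and 0% in HHC. In the 12-week cohort it had 11.7, 42.3 and 67.2% in C, 0, 0 and 44.7% in H, 26.8, 46.1 and 56.9% in CC_s and 0, 20 and 0% in HC. All 10 control libraries had it and 2 of 12 diet libraries did. The HH against CC_l difference was −94.1 ± 21.1 (limma adjusted p = 0.0199) and was lost without CC_l replicate 1, CC_l replicate 2 or HH replicate 2 (up to 0.110).

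Near Dgat2, the H3K4me1 region at +55.3 kb (chr7:99118031-99136709) lies in Uvrag, an autophagy gene. It was covered at 68.9, 55.1 and 87.3% in HHC, 33.6, 47 and 53.1% in HH, 7.97 and 11.6% in CCC and 19 and 9.61% in CC_l, with no overlap in either comparison. The HHC against CCC difference of 60.6 ± 14.4 (limma adjusted p = 0.00941) held without each of the 22 libraries. Downstream of Lpin1, a region at +88 kb (chr12:16521714-16524291) had 71.6 and 90.4% in CCC and 0, 0 and 0% in HHC (−81 ± 20, limma adjusted p = 0.0120; lost without CCC replicate 3, 0.141), but also 0% in every C, CC_s and CC_l library and 0, 74.7 and 97.9% in HH. The 2 H3K27ac regions of smallest p at member loci, both in H against C, did not pass: Agpat2 at −8.7 kb (chr2:26606333-26619751) had 92.6, 96.1 and 78.7% in C and 23.2, 8.79 and 18.9% in H (limma adjusted p = 0.139), and Lpin2 at +94.4 kb (chr17:71275970-71279911, in Emilin2) had 66.8, 64.6 and 89.8% and 0, 0 and 18.5% (adjusted p = 0.151).

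**Figure D5:**
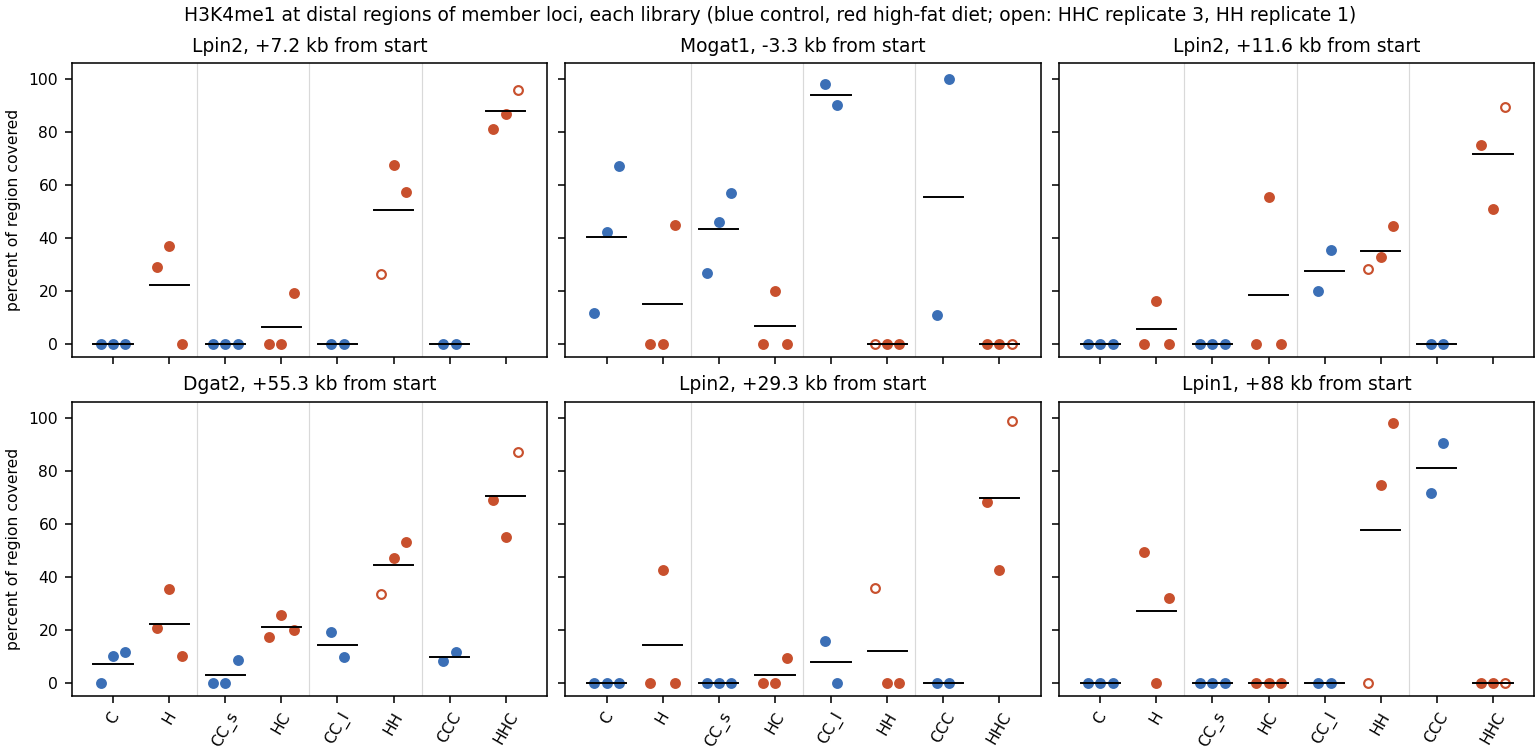
Percent of each of 6 named distal regions covered by H3K4me1 peaks (y axis) in every library of the 8 diet groups (x axis), with blue points for control libraries, red for high-fat-diet libraries open points for HHC replicate 3 and HH replicate 1, and bars for group means. The Lpin2 region at +7.2 kb is at 0 in all control libraries and between 81.2 and 95.7% in HHC, and the Mogat1 region at −3.3 kb is at 0 in HH and HHC.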

How the data were processed

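CUT&Tag with antibodies to 4 histone marks was run on labelled adipocyte nuclei of mouse epididymal fat, and 84 peak lists, 1 per library, were used. Per the file headers and labels, the authors trimmed reads with Trim Galore 0.6.6, aligned them to mm10 with Bowtie2 2.4.4, handled them with SAMtools 1.13 and bedtools 2.30, and called peaks in each library with SEACR 1.3 (stringent, threshold 0.01). The deposited values per peak are its total and highest signal, on a scale that is not comparable between libraries, so the share of each region covered by peaks was compared instead, and signal only as a rank within a library. No read totals are given in the files used, so depth is unknown. A threshold per library makes covered width follow depth and background as well as the mark.

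Promoters were 2000 bp either side of the 41438 start sites of protein-coding genes in GENCODE M21, merged per gene. Loci were the gene body and 50 kb flanks without any promoter. Distal regions were merged peaks outside promoters. Features with a peak in at least 2 libraries were fitted per mark in limma 3.58.1 (R 4.3.3) with all 8 groups in 1 fit, a trended prior and Benjamini-Hochberg adjustment over all features of the mark, at an adjusted p of 0.05. No peak list was identical to another (0), and nothing in the labels pairs libraries or ties a replicate to a separate mouse, so p-values measure the spread between these libraries. The study describes its replicates as biological and the marks as read from the same fat depot. Agreement between marks is therefore not independent evidence, and the labels do not say whether equal replicate numbers across marks are the same mouse. The scripts were checked on simulated data. Groups were taken from sample titles. The members and lists were chosen with earlier results of these data known. The 10 members are named whatever they show, pathway genes where called at promoters, and distal regions where called, at most 6 per mark by smallest p, with 2 given where fewer than 2 were called. Start windows, the width-adjusted ranks and the fit without HHC replicate 3 and HH replicate 1 were added after seeing the data. The alternatives tried were other windows and flanks, stricter or equal numbers of peaks, log2 of covered bp with a pseudocount of 100, no filter, ranks, the width covariate, the replicate block, the treatment field and leaving out each library.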

Additional observations from a re-analysis of the deposited data

Results flagged for a closer look

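The H3K4me3 coverage of the Agpat2 locus outside promoters differed between the cohorts in its response to obesity. It was 19.8 ± 5.05 percentage points lower in H than in C and 11.5 ± 6.18 points higher in HH than in CC_l, neither of which passed on its own (limma adjusted p = 0.105 and 0.269), and the difference of 31.4 points between the 2 responses passed the test of the interaction (limma adjusted p = 0.0350). In the width-adjusted fit it was 20.5 points, with a limma adjusted p of 0.503. Over all loci tested, the median H3K4me3 difference was −0.639 points in H against C and 0.775 in HH against CC_l. The share of all loci that passed the interaction is not given here. Some H3K4me3 libraries of CC_l and HH have a treatment field that names another group, and the interaction is not given by that field or with libraries left out.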

How the results depend on the processing

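The number of members called at promoters for H3K4me3 (3 of 40 member-by-comparison pairs) became 7 with start windows tested separately (the Lpin2 window that passed the filter through HHC alone included) and 0 with signal ranks and the width covariate. For H3K27ac (4) it became 0 without a filter, 1 with ranks, 0 with ranks and the width covariate, 1 with stricter peaks, 1 with equal numbers of peaks and 0 with the width covariate. For H3K4me1 (2) it became 1 with 1000 bp windows, 0 on the log2 scale, 0 without a filter, 0 with ranks, 1 with ranks and the width covariate, 0 with stricter peaks, 1 with equal numbers, 1 with the width covariate and 1 without HHC replicate 3 and HH replicate 1. Locus calls for H3K4me3 (2) became 4 with stricter peaks, 4 with equal numbers, 0 by the treatment field and 1 without HHC replicate 3 and HH replicate 1. For H3K27ac (1) they became 0, 0 and 0 with stricter peaks, equal numbers and the width covariate and 2 without those libraries, and for H3K4me1 (2) 1 and 1 with stricter peaks and equal numbers. Distal calls for H3K4me1 (14, the Agpat3 region that passed the filter through HHC alone included) became 8 without a filter and 27 with the width covariate. For H3K27ac (1) they became 0 without a filter, 2 with stricter peaks and 15 without HHC replicate 3 and HH replicate 1. Presence calls became 2 and 3 for H3K4me3 (1) with stricter peaks and equal numbers, 2 for H3K27ac (0) and 1 for H3K4me1 (0) with equal numbers, and 0 for H3K27me3 (2) with 1000 bp windows, stricter peaks or equal numbers. Dgat2 H3K27ac in H against C turned to +0.77 percentile points with ranks and the width covariate (limma adjusted p = 0.99). The cause was not tested for any of these.

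Leaving out 1 library at a time gave 2 to 6 promoter calls for H3K4me3 (most without CC_s replicate 3), 1 to 10 for H3K27ac (most without CCC replicate 1), 0 to 2 for H3K4me1 and 0 to 1 for H3K27me3. Locus calls ranged from 0 to 8 for H3K4me3 (most without HHC replicate 2), 0 to 5 for H3K27ac (most without CCC replicate 1), 0 to 2 for H3K4me1 and 0 to 7 for H3K27me3 (most without HH replicate 3). Distal calls ranged from 0 to 8 for H3K27ac and 7 to 35 for H3K4me1, both with most calls without HHC replicate 2. Presence calls ranged from 1 to 2, 0 to 1, 0 to 2 and 2 to 4 for H3K4me3, H3K27ac, H3K4me1 and H3K27me3. Without HC replicate 3, a library with few adipocyte markers, promoter calls were 4, 3 and 0 for H3K4me3, H3K27ac and H3K4me1, and distal calls 0 and 8 for H3K27ac and H3K4me1. Over 838 values of 29 single results under all settings, 530 kept their direction and call, 307 kept the direction and lost the call, and 1 reversed. These values include the fits without 1 library. Leaving out a library of a group outside the comparison leaves the difference unchanged, so its direction could not reverse there.

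Same-numbered libraries did not deviate together (36 pairs, correlations −0.43 to 0.19, 6 of them above 0.1), so the replicate number was not taken as a pairing. With the replicate block, promoter calls were 4 for H3K4me3, 2 for H3K27ac and 1 for H3K4me1, distal calls for H3K27ac were 0, and locus calls for H3K27me3 were 1. Groups of 2 or 3 libraries and unknown depth limit what could be detected, and a promoter without a peak may hold the mark below the peak threshold.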

Other observations

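A region 19.7 kb upstream of Gpam (chr19:55144316-55149498), singled out after its values were seen because it was called in both comparisons of the 25-week cohort, was covered by H3K4me1 at 65.8 and 81.5% in CC_l and 23.1, 0 and 0% in HH, and at 33.9 and 91.8% in CCC and 0, 0 and 0% in HHC. The differences were −66 ± 16.9 (limma adjusted p = 0.0427) and −62.8 ± 16.9 (adjusted p = 0.0201). The first was lost without CC_l replicate 1, CC_l replicate 2, HH replicate 2 or HH replicate 3 (up to 0.268) and the other without CCC replicate 3 (0.279).

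Outside promoters, 4 of 22 tested genes of the pathway list were higher for H3K27ac in HHC than in CCC, beside 27.9% of all loci called, and none of the 4 passed in the width-adjusted fit: Agpat1 (23.1 points, limma adjusted p = 0.00955), Pck2, Acsl5 and Fitm1. For H3K4me3, 3 of 21 were higher (Fitm1, 8 points, limma adjusted p = 0.00157, Gpat2 and Pck2) and 1 lower (Mogat2, −18.1, adjusted p = 0.0302), beside 25.9% of all loci. For H3K4me1, 3 of 22 were higher in HHC than in CCC (background 23.9%), and for H3K27me3 1 of 20 was (6.57%). In HH against CC_l, 2 of 21 were higher for H3K4me3 (7.52%). By presence, without a test, Mogat2 gained promoter H3K27me3 in H and in HHC (11% and 5.6% of genes gained or lost). Gpat3 lost and Agpat1 gained H3K4me1 in H (3.26%), and Acsl4 lost H3K27ac in H (4.24%).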
